A study of Mus musculus with 12 samples.

Results

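The 7SK RNA (gene symbol Rn7sk) and 6 protein-coding genes that work with it in transcription pause release were followed in mouse embryonic stem (ES) cells placed under mTOR inhibition. The members were found by gene symbol and are Rn7sk, Hexim1, Larp7, Mepce, Cdk9, Ccnt1 and Ccnt2, that is 7 of the 54446 gene identifiers in the series. Rn7sk was chosen by its level, because it takes several percent of each library, so that level is given as a description with no test. All 7 members passed the filter on low values, which asked for an average of 1 TPM or more across the 12 libraries and left 15727 genes for testing.

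The libraries came from 2 ES cell lines. KH cells carry both de novo DNA methyltransferase genes, and DNMT3ABKO cells lack Dnmt3a and Dnmt3b. The labels call the lines E14 KH and E14 DNMT3ABKO, whereas the file headers and the study's methods name the wild type KH2. Each line was sampled at 0 h, without inhibitor, and after 72 h and 144 h with the mTOR inhibitor Ink128, which places ES cells in a paused state resembling diapause. Each of the 6 groups held 2 libraries of total RNA depleted of ribosomal RNA. Each genotype was represented by 1 line, both lines were grown on mitomycin-treated feeder cells, and there was no culture without inhibitor at 72 or 144 h, so the inhibitor and time in culture cannot be told apart. The study describes its replicates in general as biological and independent, but the labels do not say which cultures the 2 libraries of a group came from, so p-values measure the spread between these libraries.

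All values are TPM, that is shares of a library corrected for transcript length, and every library sums to 1000000. The depth behind them is unknown. RNA standards were added to the samples and the study also scaled its values to them, but no standard is listed in the files used here and that scaling was not used. A rise or fall below is therefore one of share, which need not be one of amount per cell, and in bulk cultures fewer cells of a type and less RNA per cell cannot be told apart. Replicate libraries correlated at r = 0.985 to 0.996 across genes, lowest in DNMT3ABKO at 0 h. As a check of the labels, Dnmt3b lay between 142 and 258 TPM in the KH libraries and between 12.7 and 27.5 TPM in the DNMT3ABKO libraries. Defining markers of other cells moved with time. The summed level of 12 fibroblast genes went from 1115 to 1423 TPM at 0 h to 201 to 252 TPM at 72 h and 51.7 to 56.6 TPM at 144 h, and that of 8 macrophage genes from 224 to 280 TPM through 106 to 160 TPM to 19.8 to 34.1 TPM, where 1 macrophage gene was at 0 in KH at 144 h. The sum of 8 ES cell markers, none of which was at 0 in any group, was 4163 to 4426 TPM at 0 h and 6134 to 6600 TPM later. The part of these cells in the differences from 0 h below was not tested.

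7SK is a short noncoding RNA of the nucleus made by RNA polymerase III. Mepce caps its 5′ end and Larp7 holds its 3′ end, and together they keep the RNA stable. With Hexim1 on board, the particle binds and silences P-TEFb, the kinase formed by Cdk9 and cyclin T1 (Ccnt1) or cyclin T2 (Ccnt2). P-TEFb that is set free phosphorylates the pausing factors NELF and DSIF and the tail of RNA polymerase II, which lets polymerase halted near the start of a gene move on. In ES cells this step controls many developmental and signal-responsive genes.

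The parts of 7SK that its partners read are shown because the results turn on this RNA. Rn7sk (ENSMUSG00000065037.1) is annotated as a 331-base miscellaneous RNA on the minus strand at chr9:78175303-78175633 (mm10), with no intron. The first 90 bases lie in the 5′ hairpin to which Hexim1 binds. Its GATC motifs are in capitals and start at bases 13, 42 and 64, counted from the 5′ end. The sequence holds 3 of them, all within this stretch. The last 35 bases end in a run of T, in capitals, which is the kind of 3′ end that Larp7 recognises.
Rn7sk bases 1 to 90: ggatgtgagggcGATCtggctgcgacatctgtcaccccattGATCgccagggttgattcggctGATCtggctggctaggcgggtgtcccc
Rn7sk bases 297 to 331: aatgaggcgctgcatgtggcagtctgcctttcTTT

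Rn7sk was the second most abundant of all genes by mean level. Its TPM values in KH were 30895 and 27552 at 0 h, 38931 and 44866 after 72 h, and 40164 and 40579 after 144 h. In DNMT3ABKO they were 29667 and 27978 at 0 h, 41187 and 40371 after 72 h, and 42909 and 42729 after 144 h. Every library with inhibitor lay above every library without it, in both lines. As a share of the library, Rn7sk went from 2.92% ± 0.24 (SD, n = 2) to 4.19% ± 0.42 at 72 h and 4.04% ± 0.029 at 144 h in KH, and from 2.88% ± 0.12 to 4.08% ± 0.058 and 4.28% ± 0.013 in DNMT3ABKO.

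**Figure D1:**
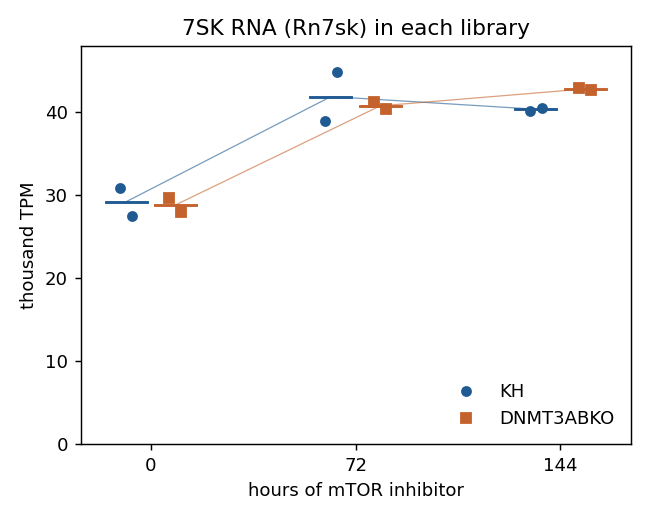
Level of 7SK RNA (vertical axis, in kilo-TPM, from 0) against hours of mTOR inhibitor (horizontal axis), for KH (circles) and DNMT3ABKO (squares). Each point is a library, short bars are group means and thin lines join them. The 4 libraries at 0 h sit between 27552 and 30895 TPM and the 8 libraries with inhibitor between 38931 and 44866 TPM.

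The rise passed the test at both times in both lines. On the log2(TPM + 1) scale, with limma fitted across all genes, Rn7sk rose by 0.52 ± 0.10 (SE) at 72 h (adjusted p = 0.00226) and by 0.47 ± 0.10 at 144 h (adjusted p = 0.00335) in KH. In DNMT3ABKO it rose by 0.50 ± 0.10 (adjusted p = 0.0021) and 0.57 ± 0.10 (adjusted p = 0.000823). Between 72 and 144 h the difference was -0.05 in KH and 0.07 in DNMT3ABKO, neither past the threshold. The responses of the lines differed by -0.02 at 72 h (95% interval -0.34 to 0.30) and by 0.10 at 144 h (-0.22 to 0.42). When genes below 1 TPM were kept in the fit, the adjusted p of the 4 rises was 0.112 to 0.218, with the same log2 differences. When only the KH libraries at 0 and 72 h were fitted, that of the KH rise at 72 h was 0.121. The size of the rises depended on the setting. Over the alternative settings that left out no library, they were 0.42 to 0.54 and 0.43 to 0.49 in KH at 72 and 144 h. In DNMT3ABKO they were 0.37 to 0.52 and 0.52 to 0.59.

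Because TPM is a share, a rise of so abundant an RNA by itself lowers every other value. Taken alone, the extra 1.11 to 1.40 percentage points of Rn7sk would lower all other genes by 1.15 to 1.44%. That is 0.017 to 0.021 on the log2 scale, with everything else held fixed. The median log2 difference of all genes tested was 0.08 (KH, 72 h), 0.05 (KH, 144 h), 0.12 (DNMT3ABKO, 72 h) and 0.05 (DNMT3ABKO, 144 h). Other genes of at most 400 bases took 10.1 to 15.0% of each library. Gm26917 and Gm42418 together took more of each library than Rn7sk. Their share was 16.7% and 10.3% in the libraries of DNMT3ABKO at 0 h, and 11.3 to 12.6% in all other groups. The DNMT3ABKO libraries at 0 h, the baseline of that line, were thus the furthest apart in this share. Among abundant short RNAs, Rn7s1 and Rn7s2, described below, lost share. Together they took a mean of 6.11% in KH at 0 h, 4.51% at 72 h and 4.08% at 144 h. In DNMT3ABKO they took 6.18%, 4.19% and 3.65%.

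Near-identical copies of 7SK are annotated elsewhere and their reads could be split among them. A search of the annotated transcripts found 30 other genes with at least 80% identity to 7SK over at least 200 bases, and 24 of them had a mean under 1 TPM. In each library all 30 together came to 20.2 to 29.9% of Rn7sk. Nearly all of that lay in Gm24447, identical to 7SK over 241 bases, and Gm26315, with 99.6% identity over 238 bases. Gm24447 held 3813 ± 977 TPM (SD, n = 2) at 0 h and 5208 ± 346 TPM at 144 h in KH, and 4165 ± 904 TPM and 5744 ± 50 TPM in DNMT3ABKO. The TPM values of Rn7sk and the 5 copies of at least 95% identity were also summed. That sum rose by 0.53, 0.47, 0.49 and 0.55 in the same 4 comparisons (adjusted p = 0.00395, 0.00672, 0.00467 and 0.00226), so the 4 calls held for it. TPM are corrected for the length of each gene, so the sum is not one of reads.

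Among the other short RNAs made by RNA polymerase III, of 7 rows tested, none was called higher than at 0 h in any of the 4 comparisons, and 2 (KH, 72 h), 3 (KH, 144 h), 2 (DNMT3ABKO, 72 h) and 3 (DNMT3ABKO, 144 h) were called lower. In the same order 28.3%, 27.4%, 34.3% and 31.4% of all genes tested were called higher, and 19.5%, 23.9%, 21.6% and 26.2% lower. The median of the list was -0.21, -0.56, -0.17 and -0.11. Under the alternative settings the list's counts of lower calls ranged over 0 to 2, 0 to 4, 0 to 4 and 2 to 3. The falling genes were Rn7s1 and Rn7s2, which encode 7SL, the RNA of the signal recognition particle, and at 144 h also Bc1, a short neuronal RNA. Rn7s1 and Rn7s2 are near copies whose reads are not told apart with certainty, so their calls do not count as independent.

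In KH, Rn7s1 measured 36131 and 25306 TPM at 0 h, 22073 and 23348 TPM at 72 h, and 21262 and 19818 TPM at 144 h. In DNMT3ABKO it measured 30551 and 31390 TPM at 0 h, 20392 and 21773 TPM at 72 h, and 19713 and 17081 TPM at 144 h. All libraries with inhibitor were below all libraries without it. Rn7s1 fell by 0.41 (adjusted p = 0.0439) and 0.56 (adjusted p = 0.0106) in KH and by 0.56 (adjusted p = 0.0101) and 0.75 (adjusted p = 0.00165) in DNMT3ABKO. The DNMT3ABKO call at 72 h did not hold without DNMT3ABKO 72 h replicate 1, where the difference was -0.51. Without KH 0 h replicate 1, the library of 36131 TPM, the KH differences were -0.16 (adjusted p = 0.31) and -0.30 (adjusted p = 0.0601). That at 72 h had an adjusted p of 0.0537 with the replicate number as a block and 0.225 when only its groups were fitted. It was 0.0545 to 0.166 without any 1 of the 8 libraries with inhibitor, and the KH difference at 144 h had one of 0.0667 without KH 144 h replicate 2. Rpph1, the RNA of ribonuclease P, differed from 0 h by -0.01, -0.09, -0.17 and -0.11, and Rmrp, the RNA of ribonuclease MRP, by 0.07, -0.31, 0.14 and 0.08, with no call. For Rpph1 the 95% intervals reached from -0.44 to 0.26 and for Rmrp from -0.64 to 0.48. The ratio of Rn7sk to the sum of Rn7s1 and Rn7s2 within a library, which no scaling of libraries changes, was 0.43 to 0.55 in KH and 0.45 to 0.48 in DNMT3ABKO at 0 h. It was 0.89 to 0.97 and 0.93 to 1.02 at 72 h, and 0.95 to 1.03 and 1.10 to 1.26 at 144 h. This ratio was chosen after the values were seen.

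**Figure D2:**
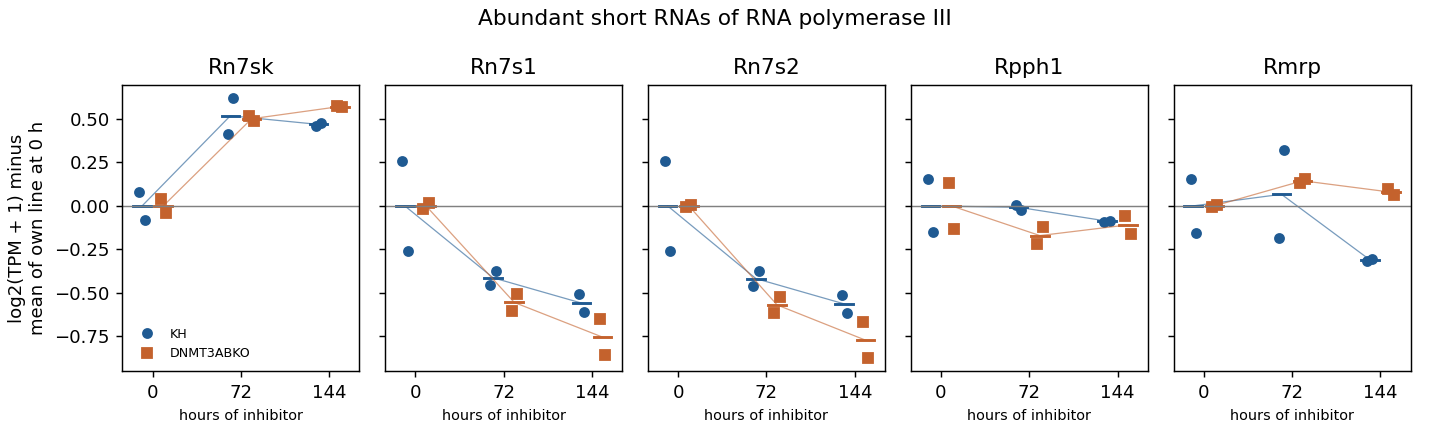
Difference in log2(TPM + 1) from the mean of the same line at 0 h (vertical axis, shared) against hours of inhibitor (horizontal axis) for 5 abundant RNAs of RNA polymerase III, with KH as circles and DNMT3ABKO as squares. Each point is a library and short bars are means. Rn7sk goes up, Rn7s1 and Rn7s2 go down, and Rpph1 and Rmrp show no called change.

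The 6 protein members were far less abundant, with means of 40.9 (Ccnt1), 50.2 (Ccnt2), 54.9 (Hexim1), 56.5 (Larp7), 65.7 (Mepce) and 76.7 TPM (Cdk9) over all libraries. Counting Rn7sk, 4 members were called higher and 1 lower in KH at 72 h, where 28.3% and 19.5% of all genes tested were called in those directions. At 144 h the counts in KH were again 4 and 1, beside 27.4% and 23.9%. In DNMT3ABKO 5 were called higher and 1 lower at 72 h, beside 34.3% and 21.6% of all genes, and 5 and 1 at 144 h, beside 31.4% and 26.2%. The single member that fell was Larp7 each time. The median over the 7 members was 0.40 and 0.32 in KH and 0.46 and 0.45 in DNMT3ABKO. After median-ratio scaling of the libraries, the median of all genes in DNMT3ABKO at 72 h was 0.01 in place of 0.12. Higher calls were then 47.6% of all calls in place of 59.1% in KH at 72 h, 49.9% in place of 61.3% in DNMT3ABKO at 72 h, and 46.1% and 47.8% in place of 31.7% and 32.3% from 72 to 144 h in KH and DNMT3ABKO. In each line the 2 comparisons share their 0 h libraries.

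Hexim1 (ENSMUSG00000048878.6, chr11:103116231-103119725, plus strand), the inhibitor of P-TEFb within the 7SK particle, rose in both lines. Its TPM values were 45.3 and 45.6 in KH at 0 h, 61.5 and 59.4 after 72 h, and 61.3 and 63.2 after 144 h. In DNMT3ABKO they were 45.0 and 40.0, then 50.6 and 51.6, then 66.4 and 69.3. In KH the 72 h and 144 h libraries overlapped, whereas in DNMT3ABKO each time point stood above the one before. Hexim1 rose by 0.40 ± 0.07 (SE, adjusted p = 0.00104) at 72 h and 0.44 ± 0.07 (adjusted p = 0.000447) at 144 h in KH. In DNMT3ABKO it rose by 0.26 ± 0.07 (adjusted p = 0.009) at 72 h and by 0.66 ± 0.07 (adjusted p = 2.16e-05) at 144 h, and the step from 72 to 144 h, 0.40, passed the test too (adjusted p = 0.0018). The DNMT3ABKO rise at 72 h was 0.14 after median-ratio scaling (adjusted p = 0.228), had an adjusted p of 0.113 when only the 2 groups were fitted, and one of 0.0552 without DNMT3ABKO 72 h replicate 2. The responses of the lines differed by -0.14 at 72 h (95% interval -0.36 to 0.08) and 0.22 at 144 h (0.00 to 0.44, adjusted p = 0.212).

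Larp7 (ENSMUSG00000027968.11, chr3:127536714-127553349, minus strand) moved the other way from the RNA it protects. It measured 63.8 and 64.3 TPM in KH at 0 h, 50.5 and 47.9 TPM at 72 h, and 51.1 and 49.7 TPM at 144 h. In DNMT3ABKO it measured 78.5 and 76.6 TPM, then 48.5 and 44.3 TPM, then 50.0 and 52.4 TPM. No library with inhibitor reached the level of any library without it, and the lines were apart at 0 h and overlapped at 144 h. Larp7 fell by 0.37 ± 0.07 (adjusted p = 0.0013) and 0.34 ± 0.07 (adjusted p = 0.00187) in KH, and by 0.73 ± 0.07 (adjusted p = 1.31e-05) and 0.59 ± 0.07 (adjusted p = 3.92e-05) in DNMT3ABKO. These 4 falls were called under every alternative setting and without any 1 library. The 72 h responses of the lines differed by -0.35 (95% interval -0.56 to -0.14), with an adjusted p of 0.062. Over the alternative settings that left out no library it ranged from 0.0316, with genes of at most 400 bases taken out of the library total, to 0.175. Leaving out 1 library in turn gave differences of -0.42 to -0.29.

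Mepce (ENSMUSG00000029726.16, chr5:137781906-137787655, minus strand), the enzyme that methylates the 5′ end of 7SK, rose. Its TPM values in KH were 50.8 and 51.6 at 0 h, 74.4 and 71.7 after 72 h, and 61.7 and 62.8 after 144 h. In DNMT3ABKO they were 55.6 and 52.1, then 80.8 and 78.8, then 73.1 and 74.9. The level was highest at 72 h in both lines and no libraries of different times overlapped within a line. Mepce rose by 0.50 ± 0.06 (adjusted p = 0.000119) at 72 h and by 0.28 ± 0.06 (adjusted p = 0.00333) at 144 h in KH, and by 0.56 ± 0.06 (adjusted p = 3.79e-05) and 0.45 ± 0.06 (adjusted p = 0.000119) in DNMT3ABKO. Larp7 and Mepce encode the proteins at the ends of 7SK. In KH the ratio of Larp7 to Mepce in TPM was 1.25 ± 0.0074 (SD, n = 2) at 0 h. It was 0.673 ± 0.0081 at 72 h and 0.809 ± 0.026 at 144 h. In DNMT3ABKO it went from 1.44 ± 0.041 to 0.582 ± 0.027 and 0.692 ± 0.011. This ratio, too, was chosen after the values were seen.

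**Figure D3:**
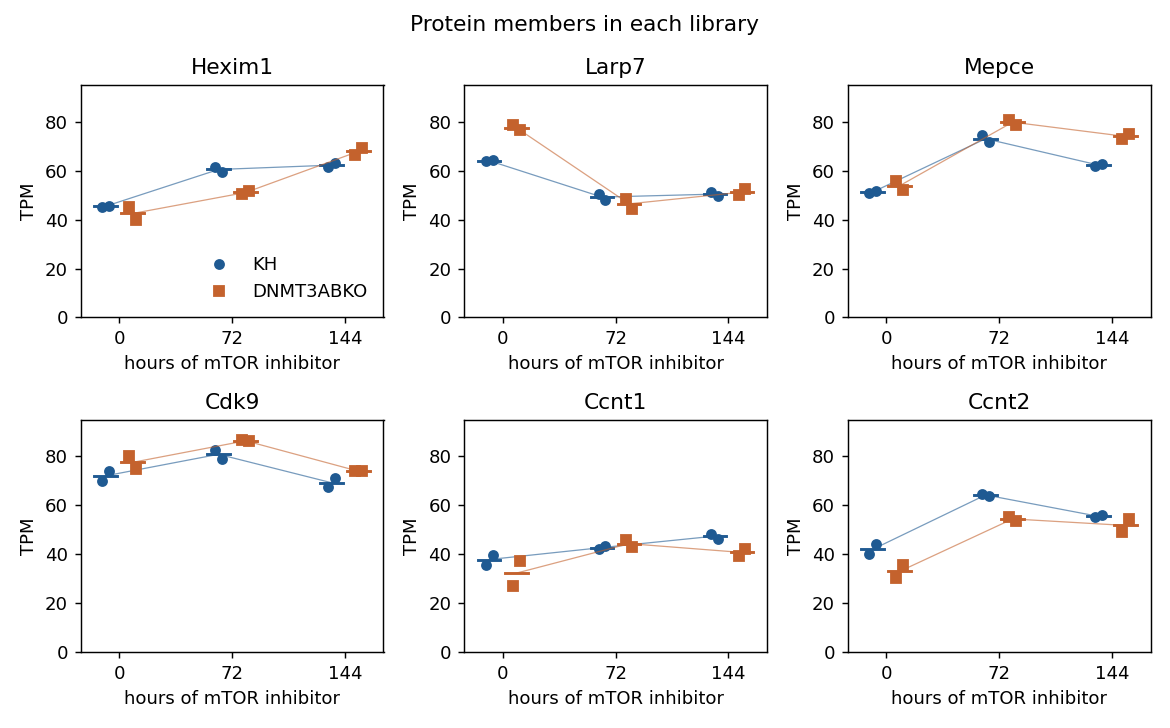
TPM (vertical axes, from 0 and on the same scale) against hours of mTOR inhibitor (horizontal axes) for the 6 protein members, with KH as circles and DNMT3ABKO as squares. Each point is a library and short bars are means. Larp7 is highest at 0 h, at 63.8 to 78.5 TPM, while Hexim1, Mepce and Ccnt2 are lowest there.

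Of the P-TEFb subunits, Ccnt2 was called in all 4 comparisons with 0 h and Cdk9 in none. Cdk9 (ENSMUSG00000009555.16, chr2:32705784-32713076, minus strand), the catalytic subunit, measured 70.0 and 74.1 TPM in KH at 0 h, 82.6 and 79.1 TPM at 72 h, and 67.3 and 71.2 TPM at 144 h. In DNMT3ABKO it measured 80.3 and 74.9 TPM, then 86.6 and 86.2 TPM, then 73.9 and 74.0 TPM. It varied least of the members, 1.29-fold between its lowest and highest library. The differences from 0 h were 0.16 (95% interval 0.02 to 0.31, adjusted p = 0.0575) and -0.06 (-0.20 to 0.09) in KH and 0.15 (0.01 to 0.30, adjusted p = 0.0638) and -0.07 (-0.21 to 0.08) in DNMT3ABKO. Both 72 h differences were called when the libraries were rescaled without Rn7sk (adjusted p = 0.035 and 0.0393), whereas after median-ratio scaling they were 0.07 and 0.03 (adjusted p = 0.52 and 0.767).

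Ccnt2 (ENSMUSG00000026349.14, chr1:127774164-127808061, plus strand), which encodes cyclin T2, showed the widest range of the members, 2.14-fold. Its TPM values were 40.0 and 44.1 in KH at 0 h, 64.8 and 63.7 after 72 h, and 55.1 and 55.9 after 144 h, and 30.3 and 35.8, then 55.3 and 53.6, then 49.3 and 54.3 in DNMT3ABKO. All libraries with inhibitor were above all libraries without it. Ccnt2 rose by 0.60 ± 0.09 (adjusted p = 0.000422) and 0.40 ± 0.09 (adjusted p = 0.00404) in KH and by 0.71 ± 0.09 (adjusted p = 9.96e-05) and 0.64 ± 0.09 (adjusted p = 0.000165) in DNMT3ABKO.

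Ccnt1 (ENSMUSG00000011960.12, chr15:98538689-98570923, minus strand), which encodes cyclin T1, was called in DNMT3ABKO. It measured 35.8 and 39.9 TPM in KH at 0 h, 42.1 and 43.4 TPM at 72 h, and 48.5 and 46.4 TPM at 144 h. In DNMT3ABKO it measured 27.3 and 37.4 TPM, then 45.8 and 42.9 TPM, then 39.5 and 42.1 TPM. The libraries of DNMT3ABKO at 0 h were far apart, and the lower of them, replicate 1, was the lowest of all 12. In KH the differences were 0.17 (adjusted p = 0.277) and 0.32 (95% interval 0.04 to 0.59, adjusted p = 0.0532). Over the alternative settings that left out no library, the adjusted p of the latter ranged from 0.0149, after median-ratio scaling, to 0.128. In DNMT3ABKO Ccnt1 rose by 0.46 ± 0.12 (adjusted p = 0.00971) and 0.34 ± 0.12 (adjusted p = 0.0364). Its responses in the lines differed by 0.29 at 72 h (95% interval -0.10 to 0.68) and by 0.02 at 144 h (-0.37 to 0.41), neither called. Without DNMT3ABKO 0 h replicate 1 the DNMT3ABKO differences were 0.24 and 0.12, the latter with an adjusted p of 0.238. Without either 144 h library of that line the 144 h difference had an adjusted p of 0.0729 or 0.159, and without any 1 of the KH libraries at 72 and 144 h or of the DNMT3ABKO libraries at 72 h it was 0.0501 to 0.0523. When only the groups compared were fitted, the DNMT3ABKO differences had an adjusted p of 0.0763 at 72 h and 0.147 at 144 h, and with no filter on low values that at 144 h had one of 0.0879. The DNMT3ABKO call at 72 h had an adjusted p of 0.0622 without DNMT3ABKO 72 h replicate 1.

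Ratios within a library compare members with no need for scaling, though only as levels corrected for length. Ccnt1 to Ccnt2 was 0.90 to 0.91 in KH at 0 h, 0.65 to 0.68 at 72 h and 0.83 to 0.88 at 144 h, and 0.90 to 1.04, 0.80 to 0.83 and 0.77 to 0.80 in DNMT3ABKO. The ratio was below its 0 h values at 72 h in both lines. At 144 h it lay above its 72 h values in KH and reached from 0.77 to 0.80 in DNMT3ABKO, and this difference between the lines was not tested. Hexim1 to Cdk9 was 0.62 to 0.65, 0.74 to 0.75 and 0.89 to 0.91 in KH, and 0.53 to 0.56, 0.58 to 0.60 and 0.90 to 0.94 in DNMT3ABKO, with no overlap between the time points of a line. Rn7sk to the sum of the 6 protein members was 86.2 to 101 in KH at 0 h and 104 to 123 at 72 h, and 88.3 to 93.6 and 112 to 113 in DNMT3ABKO. At 144 h it was 116 in both KH libraries and 116 to 122 in DNMT3ABKO.

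**Figure D4:**
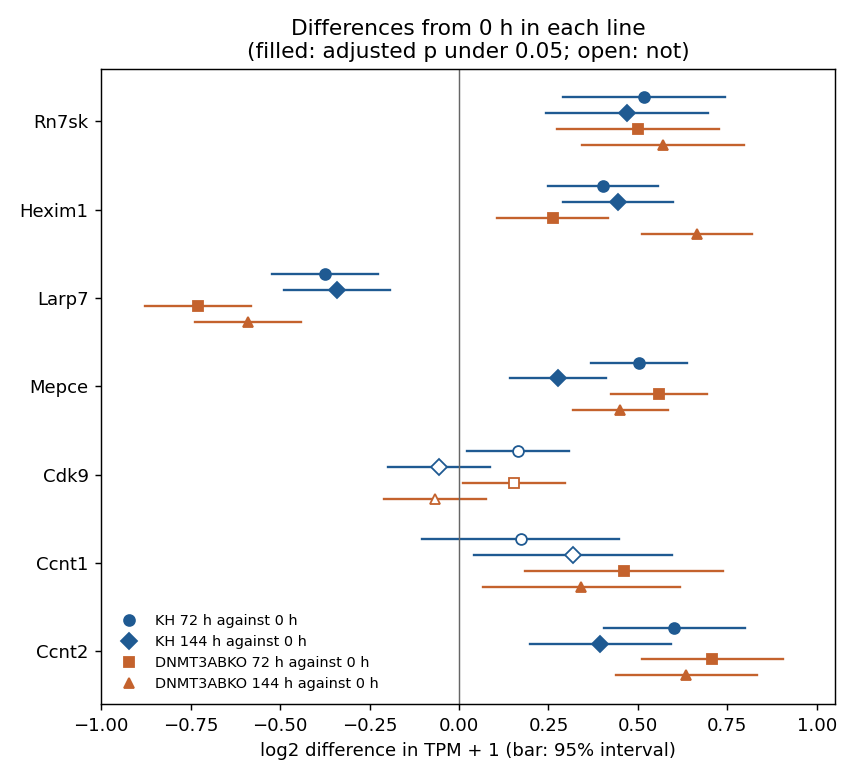
Log2 difference in TPM + 1 from 0 h (horizontal axis) for each member (vertical axis), with KH in blue and DNMT3ABKO in orange. Bars are 95% intervals, filled symbols have an adjusted p under 0.05 and open symbols do not. Rn7sk, Hexim1, Mepce and Ccnt2 lie to the right of 0 in all 4 comparisons, Larp7 lies to the left, and the symbols of Cdk9 are all open.

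From 72 to 144 h 2 members were called in each line. In KH none was called higher, beside 7.24% of all genes, and 2 were called lower, beside 15.6%. These were Mepce, which fell by 0.23 (adjusted p = 0.0225), and Cdk9, which fell by 0.22 (adjusted p = 0.033). In DNMT3ABKO 1 was called higher, Hexim1, beside 8.81% of all genes, and 1 lower, Cdk9, which fell by 0.22 (adjusted p = 0.0275), beside 18.5%. The falls of Mepce in KH and of Cdk9 in both lines were not called after median-ratio scaling (adjusted p = 0.133, 0.159 and 0.189), nor with the replicate number as a block (adjusted p = 0.0567, 0.069 and 0.0593). Without any 1 of the 4 libraries compared, their adjusted p was 0.0740 to 0.208.

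Between the lines at the same time, 4 calls were made in all and none of them held without each library in turn. At 0 h 1 member was called higher in DNMT3ABKO, Larp7 by 0.27 (adjusted p = 0.0313), beside 4.92% of all genes, and 1 lower, Ccnt2 by -0.34 (adjusted p = 0.0403), beside 4.14%. At 72 h no member was called higher, beside 9.26%, and Hexim1 was called lower by -0.24 (adjusted p = 0.0363), beside 10%. At 144 h Mepce was called higher by 0.24 (adjusted p = 0.0137), beside 11%, and no member lower, beside 15.5%. Leaving out any 1 of the 4 libraries compared took away the calls of Ccnt2, Hexim1 and Mepce (except Ccnt2 without DNMT3ABKO 0 h replicate 2), with adjusted p up to 0.229, and that of Larp7 without KH 0 h replicate 1 or 2 or DNMT3ABKO 0 h replicate 1, up to 0.124. With the replicate number as a block, Larp7 and Ccnt2 at 0 h and Hexim1 at 72 h were not called (adjusted p = 0.0738, 0.0575 and 0.0812). When only the groups compared were fitted, Larp7 and Ccnt2 at 0 h had an adjusted p of 0.436 and 0.422. At 72 h Hexim1 was also not called after median-ratio scaling (adjusted p = 0.145) or after rescaling without Gm26917 and Gm42418 (adjusted p = 0.0646). In those 2 settings Ccnt2 was called lower in its place, by -0.20 (adjusted p = 0.0221) and -0.23 (adjusted p = 0.0408). Rn7sk differed between the lines by -0.02, -0.04 and 0.08, with 95% intervals between -0.26 and 0.31. In the tests of the difference between the responses no member was called. For the 72 h responses 3.38% of all genes had a higher value in DNMT3ABKO by this test and 1.86% a lower one. For the 144 h responses these shares were 4.89% and 3.7%.

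Among the other genes of the pathway, lists were described by how many of their tested rows were called against 0 h and by their median log2 difference. The order is KH at 72 and 144 h, then DNMT3ABKO at 72 and 144 h. In that order 28.3%, 27.4%, 34.3% and 31.4% of all genes tested were called higher. Those called lower were 19.5%, 23.9%, 21.6% and 26.2%. These shares stand beside every list count against 0 h below, and some of the counts lay near them. The super elongation complex, a partner of P-TEFb, had 3, 6, 6 and 6 of 10 higher and 0, 0, 1 and 1 lower, with medians of 0.22, 0.35, 0.38 and 0.31. Ell2, an elongation factor of this complex, rose by 0.46 and 0.49 in KH and 0.94 and 0.85 in DNMT3ABKO. Factors that recruit P-TEFb or release it from 7SK had 0, 1, 1 and 1 of 9 higher and 3, 1, 3 and 1 lower, with medians of -0.06, 0.06, -0.07 and 0.07. The one called in all 4 was Ppm1g, a phosphatase that helps to free P-TEFb from 7SK, which fell by 0.55 and 0.56 in KH and 0.62 and 0.69 in DNMT3ABKO.

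The targets of P-TEFb were mixed. NELF and DSIF subunits had 2, 0, 1 and 3 of 6 higher and 1, 0, 1 and 1 lower, with medians of -0.03, -0.07, 0.02 and 0.05. Nelfa, a NELF subunit, stood at 41.6 to 53.0 TPM in all KH libraries and at 46.0 to 56.1 TPM in DNMT3ABKO at 0 and 72 h, but at 94.8 and 96.8 TPM in DNMT3ABKO at 144 h. There it rose by 0.90 ± 0.10 (adjusted p = 3.44e-05), and the 144 h responses of the lines differed by 0.96 (adjusted p = 0.00207). RNA polymerase II subunits had 1, 1, 1 and 2 of 12 higher and 6, 5, 5 and 5 lower, with medians of -0.29, -0.24, -0.18 and -0.15. Polr2a, the largest subunit with the tail that P-TEFb phosphorylates, was among the few that rose, by 0.77 and 0.56 in KH and 0.78 and 0.76 in DNMT3ABKO. Polr2i, a small subunit, fell by 0.70, 0.84, 0.56 and 0.66.

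PAF complex members and elongation partners had 2, 3, 5 and 4 of 9 higher and 1, 2, 1 and 1 lower, with medians of 0.12, 0.13, 0.30 and 0.34. Paf1 was called higher in all 4, by 0.41, 0.39, 0.51 and 0.60. Other transcription kinases and cyclins had 2, 3, 4 and 5 of 9 higher and 0, 0, 0 and 1 lower, with medians of 0.14, 0.18, 0.31 and 0.43. Proteins that bind 7SK outside the core particle had 2, 3, 5 and 6 of 12 higher and 1, 1, 0 and 1 lower, with medians of 0.08, 0.08, 0.19 and 0.24. Hexim2, the paralog of Hexim1, was measured at 2.37 to 6.05 TPM. It rose in KH by 0.70 (adjusted p = 0.0106) and 0.52 (adjusted p = 0.0356), while the DNMT3ABKO differences were 0.00 and 0.28. The test of the difference at 72 h, -0.69, gave an adjusted p of 0.182.

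Factors that make 7SK or hold its making back were counted in the same way, beside the same shares of all genes. Of 11 such factors for promoters of the 7SK type, 4, 5, 4 and 7 were called higher and 1, 1, 0 and 1 lower. Their medians were 0.09, 0.29, 0.21 and 0.40. The 11 include Maf1, the repressor of RNA polymerase III that mTOR signalling restrains, so the counts mix opposite roles. Maf1 rose by 0.59 and 0.64 in KH and 0.62 and 0.68 in DNMT3ABKO. Pou2f1, the octamer-binding factor of such promoters, rose by 0.44, 0.81, 0.77 and 0.65, the first with an adjusted p of 0.0686 with the replicate number as a block. RNA polymerase III subunits had 3, 5, 5 and 6 of 13 higher and 4, 4, 1 and 3 lower, with medians of 0.01, 0.03, 0.10 and 0.08. The paralogs that occupy the same place in the enzyme went in opposite directions, as Polr3gl rose by 1.57 and 1.62 in KH and 1.09 and 1.04 in DNMT3ABKO. Polr3g fell by 0.62 and 0.90 in KH and 0.45 at 144 h in DNMT3ABKO, with -0.09 at 72 h. Polr3gl measured 3.68 to 5.75 TPM in the libraries at 0 h and 8.78 to 19.4 TPM later. The 144 h response of Polr3gl was smaller in DNMT3ABKO by -0.58 (adjusted p = 0.0366, or 0.0533 with the replicate number as a block). Short RNAs of RNA polymerase II had 0, 3, 3 and 3 of 11 rows higher and none lower, with medians of 0.15, 0.60, 0.18 and 0.66.

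Immediate early genes, which are induced by signals through release of paused polymerase, differed by time. In the same order 8, 2, 9 and 6 of 14 were called higher and 5, 8, 4 and 5 lower, with medians of 0.41, -0.65, 0.92 and -0.03. From 72 to 144 h 1 rose and 11 fell in KH, where 7.24% and 15.6% of all genes tested were called in those directions. In DNMT3ABKO 2 rose and 11 fell, beside 8.81% and 18.5% of all genes. Fos, a signal-induced transcription factor, measured 31.3 and 38.1 TPM in KH at 0 h, 74.9 and 72.5 TPM at 72 h, and 19.4 and 21.7 TPM at 144 h. In DNMT3ABKO it measured 27.8 and 28.7 TPM, then 85.0 and 83.2 TPM, then 21.1 and 21.8 TPM. Fos thus lay above the 0 h libraries at 72 h and below them at 144 h in both lines, a course not shared by Rn7sk, which stayed up.

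**Figure D5:**
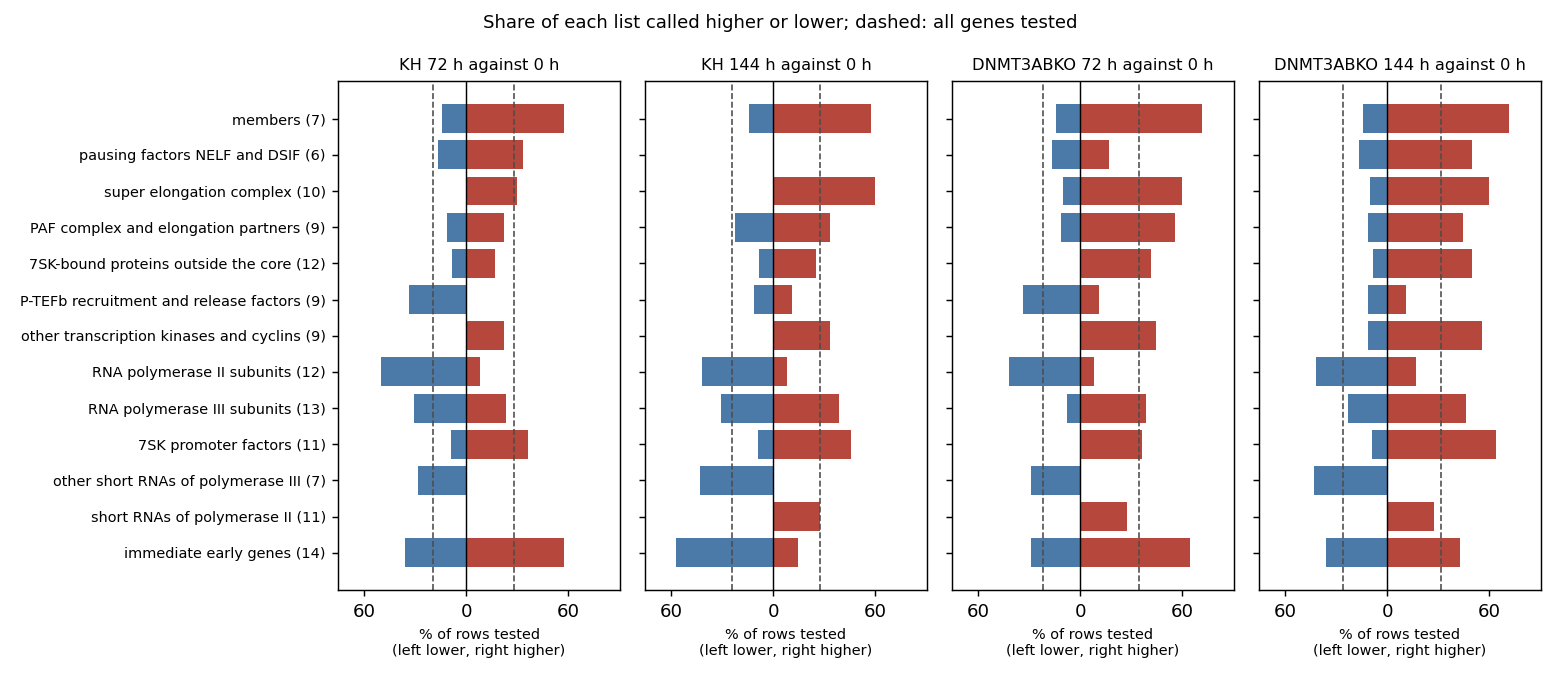
Share of tested rows of each list called higher (red, to the right) or lower (blue, to the left) than at 0 h, in percent of the rows in parentheses, for the 4 comparisons with 0 h. Dashed lines mark the shares over all 15727 genes tested, for example 28.3% higher and 19.5% lower in KH at 72 h. The members lean to the right and RNA polymerase II subunits to the left. The super elongation complex leans to the right except in KH at 72 h, where 3 of 10 were called higher, close to the dashed line.

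Over the 12 libraries, the genes whose log2(TPM + 1) followed Rn7sk most closely, of 8611 genes averaging 10 TPM or more, were Bex2 (Pearson r = 0.975), Gm24339 (0.975), Cirbp (0.972), Scarna9 (0.967) and Mir3070a (0.966). Of these, Gm24339 spans 76 bases, Scarna9 70 and Mir3070a 89. Cirbp, a cold-inducible RNA-binding protein, stood at 20.3 to 22.6 TPM in the libraries at 0 h and 44.8 to 56.5 TPM later. Those most like Hexim1 were Zc3h12a (0.973), Uap1l1 (0.968) and Rnf167 (0.966). Libraries of a group share their condition, so these values describe likeness and carry no p. Among the members, Rn7sk had r = 0.86 with Hexim1, 0.87 with Mepce, 0.83 with Ccnt2, 0.65 with Ccnt1, 0.17 with Cdk9 and -0.90 with Larp7.

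Start regions were given for 5 of the 7 members by RefSeq (GRCm38.p6), from 250 bases before to 50 after each start. Hexim1, which rose, and Larp7, which fell, are shown up to the start of the gene in the files. Capitals mark motifs sought on either strand, where matches may overlap. In these files the Hexim1 gene starts 94 bases upstream of the RefSeq start, and the positions given here are counted from the start in the files. Hexim1 holds TATATATA starting 31 bases before it, that is the motif TATATA matched more than once, and 5.67% of the 32851 start regions of this length hold TATATA. Larp7 holds TGACGTCA, the site of factors that answer to cyclic AMP, starting 121 bases before its start, which is the same in both, with another match in the 50 bases after it that are not shown. That motif is in 1.79% of all start regions. The motif CCAAT, in 37.4% of all, is in both regions, as is GGGCGG, in 35.7% of all. The motif TATAAA, in 13.6% of all, is in none of the 5. A match describes letters, not a bound site.
Hexim1 chr11:103116075-103116230, plus strand: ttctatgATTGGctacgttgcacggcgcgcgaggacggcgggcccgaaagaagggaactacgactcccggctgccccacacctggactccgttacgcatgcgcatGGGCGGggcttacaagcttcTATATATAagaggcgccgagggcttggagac
Larp7 chr3:127553350-127553599, minus strand: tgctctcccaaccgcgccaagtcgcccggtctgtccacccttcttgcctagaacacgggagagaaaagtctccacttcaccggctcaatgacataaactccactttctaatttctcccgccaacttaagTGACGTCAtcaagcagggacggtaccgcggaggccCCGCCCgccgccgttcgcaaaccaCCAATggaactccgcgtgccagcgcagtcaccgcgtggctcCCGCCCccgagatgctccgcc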

How the data were processed

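Total RNA of 12 mouse ES cell libraries was analysed. Per the labels and the study's methods, reads were trimmed with cutadapt 2.4, aligned to mm10 with STAR (2.7.3a in the submitters' processing notes) and quantified with StringTie (2.0 in those notes) on GENCODE VM19 genes. The authors deposited 1 table of TPM values per library. Within a library, 9 to 16 rows repeated a gene identifier and were summed. TPM are not counts, so no count test was used and no counting interval is given.

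The 15727 genes averaging 1 TPM or more were tested on log2(TPM + 1) with limma 3.58.1 (R 4.3.3), with 6 groups and a variance trend, and p-values were adjusted by Benjamini-Hochberg within each of 11 contrasts at a threshold of 0.05. The test was tried on simulated data. A pseudocount of 0.1 TPM, no filter, other library scalings, smaller fits, a replicate block and leaving out libraries were alternatives. Rescaling without Gm26917 and Gm42418 and summing Rn7sk with its copies were added after seeing the data. Copies of 7SK were sought with blastn 2.17.0 in GENCODE M21 transcripts, where the members have the same coordinates. Feature sequences came from GENCODE M21 and RefSeq.

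The study processed the time points of a biological replicate together, and the replicate numbers were taken to mark this, although deviations of same-numbered libraries correlated only at -0.10 to 0.10 across genes. The block was therefore printed beside the calls it changed.

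The members and gene lists were chosen with earlier results of these data known. Genes named from a list were among the top 2 or bottom 2 called differences of some comparison, in groups that did not overlap, except Rpph1, Rmrp and Dusp1, which were named after their values were seen. Rnu4atac was not analysed here, and Vaultrc5, Rn5s, n-R5s1, Rnu6, Rnu7 and Lum were below the filter. The values of 1 listed gene are not reported here.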

Additional observations from a re-analysis of the deposited data

Results flagged for a closer look

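No group could be searched for a library standing apart, since each held 2. No member's response differed between the lines past the threshold. In other genes of the lists the difference of responses itself (DNMT3ABKO minus KH, log2, limma with adjustment over all genes) passed. Among elongation factors this was the case at 144 h for Nelfa, by 0.96 (adjusted p = 0.00207), and for Ctr9, a PAF complex subunit, by 0.67 (adjusted p = 0.00595). Polr3gl responded less in DNMT3ABKO at 144 h, by -0.58 (adjusted p = 0.0366). Rnu12, the U12 spliceosomal RNA, responded more at 72 h, by 1.02 (adjusted p = 0.0392). Among immediate early genes, Egr1 responded more by 1.04 at 72 h (adjusted p = 0.00226) and 1.22 at 144 h (adjusted p = 0.000269), Myc by 0.51 (adjusted p = 0.00907) and 0.49 (adjusted p = 0.00698), and Zfp36 by 0.61 (adjusted p = 0.0271) and 0.68 (adjusted p = 0.0111). At 144 h alone Dusp1 differed by 0.60 (adjusted p = 0.00402) and Egr2 by 0.80 (adjusted p = 0.0407). With the replicate number as a block the adjusted p was 0.0533 for Polr3gl, 0.0543 for Egr2 and 0.0613 for Zfp36 at 72 h.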

How the results depend on the processing

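Of 1617 recomputed member differences, 1473 kept their direction and side of the threshold, 84 lost a call, 32 gained one and 28 changed sign. With no filter on low values the Rn7sk rises were 0.52, 0.47, 0.50 and 0.57 but not called, and 0.52 in KH at 72 h was not called when only its groups were fitted. With genes over 400 bases plus Rn7sk as the whole, its share was 3.36%, 4.72% and 4.51% in KH and 3.36%, 4.58% and 4.78% in DNMT3ABKO.

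Uncalled differences changed sign after median-ratio scaling for Rn7sk from 72 to 144 h in KH (0.0094) and between the lines at 0 h (0.044) and 72 h (0.00064), and for Ccnt2 from 72 to 144 h in DNMT3ABKO (0.0013). That of Rn7sk at 0 h was also 0.0037 without genes of at most 400 bases, 0.0049 without Gm26917 and Gm42418 and 0.014 with its copies. The Ccnt1 difference in 144 h responses was -0.0073 without Gm26917 and Gm42418. Leaving out 1 library in turn gave ranges that crossed 0 for Rn7sk (-0.15 to 0.052) and Larp7 (-0.0032 to 0.073) from 72 to 144 h in KH. Between the lines they did so for Rn7sk at 0 h (-0.10 to 0.064) and 72 h (-0.14 to 0.067) and for Larp7 at 144 h (-0.012 to 0.056). In the difference of 72 h responses they did so for Rn7sk (-0.12 to 0.085), Cdk9 (-0.060 to 0.039) and Ccnt2 (-0.011 to 0.22), and at 144 h for Cdk9 (-0.060 to 0.038) and Ccnt1 (-0.20 to 0.24).

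With the replicate block 0 members were called from 72 to 144 h in KH, 1 in DNMT3ABKO, and 0 between the lines at 0 h and at 72 h, and 545 genes in place of 823 differed in 72 h response. The block changed no other call of a member. From 72 to 144 h in KH 0 members were called after median-ratio scaling and 1 without Gm26917 and Gm42418. Between the lines 1 was called at 0 h with no filter, 0 at 0 h and 2 at 72 h and at 144 h when only the groups compared were fitted, and 2 at 72 h without genes of at most 400 bases. In the 72 h responses 1 member was called without those genes or without Gm26917 and Gm42418. Leaving out 1 library gave 0 to 3 members from 72 to 144 h in KH and 1 to 2 in DNMT3ABKO, 0 to 3 between the lines at 0 h and 0 to 2 at 72 and 144 h, and 0 to 2 and 0 to 1 for the 72 and 144 h responses. Over all genes, fitting only the groups compared moved the calls between the lines at 0 h from 1425 to 303, the 72 h ones from 3029 to 5143, and those for the responses from 823 to 437 and from 1351 to 757. Median-ratio scaling moved the latter to 1344 and 2169, and no filter moved the 144 h count to 2099. Of 5544 recomputed list counts, 4770 stayed within 1.5 times the main count. The cause of these changes was not tested. Depth is unknown, so its limit on these values cannot be given.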
